A study of Homo sapiens with 9 samples.

Results

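Transcripts of the subunits of AMP-activated protein kinase (AMPK), of its upstream kinases and of PPARGC1A were examined in starved and metformin treated adrenal cells. The 10 genes were chosen by name, and each had exactly 1 probe set, among 18417 genes and 33297 probe sets on the array. They were the AMPK subunit genes PRKAA1, PRKAA2, PRKAB1, PRKAB2, PRKAG1 and PRKAG2, the kinase genes STK11 and CAMKK2, CAB39, which codes for a partner of the STK11 kinase, and PPARGC1A. PPARGC1A codes for the transcriptional coactivator PGC-1α, which AMPK acts on. It is neither a subunit nor an upstream kinase.

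AMPK is a complex of a catalytic α subunit, a scaffold β subunit and a γ subunit that binds adenine nucleotides. A rise of AMP or ADP over ATP favours the active kinase, for which a threonine of the α subunit must be phosphorylated, by the STK11 kinase (LKB1) together with its partners STRAD and MO25, or by CAMKK2 when calcium rises. The active kinase slows fat, sterol and protein synthesis and favours fat oxidation and glucose use. Metformin, a biguanide drug that inhibits the respiratory chain, is known as an activator of AMPK. Arrays measure transcripts, so neither the phosphorylation nor the activity of the kinase was seen here.

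Human adrenal NCI-H295R cells, an adrenocortical carcinoma line that makes steroids, were kept in growth medium for 24 h and then under 1 of 3 conditions for 48 h. In the normal growth group the medium was renewed, in the serum starvation group it was replaced by medium without serum, and in the third group the starvation medium held 10 mM metformin. No group received metformin in growth medium, so the drug was measured in starved cells only. The comparison of metformin with normal growth therefore holds both the change of medium and the drug. According to the study's methods, the growth medium also held insulin, transferrin and selenium, which the starvation medium lacked, so that loss of serum and loss of these supplements cannot be told apart. All cells were of 1 line, and each group had 3 arrays, A, B and C. The design text describes 3 independent experiments. The study's methods say this for normal growth and starvation only, so p values that use the metformin arrays may measure technical spread.

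The values were log2 expression values, with array medians between 6.04 and 6.16. The correlation between arrays of a group was 0.9964 to 0.997 in normal growth, 0.9945 to 0.9973 in starvation and 0.9903 to 0.9951 with metformin. Adrenocortical markers of steroid synthesis were among the brightest probe sets: STAR, which carries cholesterol into mitochondria, lay at percentile 97.4 of all probe sets, CYP11A1, the side chain cleavage enzyme, at 98.0, and CYP17A1, the enzyme of androgen synthesis, at 96.8. Others of the list were less bright: HSD3B2, a steroid dehydrogenase, lay at 63.6, INHA, the inhibin α subunit, at 58.5, CYP11B1, the enzyme of cortisol synthesis, at 46.9, and MC2R, the corticotropin receptor, at 43.7. Percentiles are of the mean over all 9 arrays. HSD3B2 averaged 9.09 in normal growth, 7.10 in starvation and 5.77 with metformin, so its percentile does not describe normal growth. Of 10 such markers measured, 1 was lower in starvation. With metformin, 1 was higher and 2 were lower against starvation, and 1 was higher and 4 were lower against normal growth. Among all probe sets, 0.15% passed the limma test in starvation, 4.28% with metformin against starvation and 9.07% with metformin against normal growth. Of the fibroblast, endothelial and immune markers (8, 6 and 5 measured), 0 passed the limma test in any comparison. The brightest of these were the fibroblast markers FAP, at percentile 68.1, and COL1A1, at 63.2. FAP averaged 8.19 in normal growth, 7.28 in starvation and 7.83 with metformin. Of 5 epithelial markers, 1 (EPCAM, at percentile 69.5) was higher with metformin against normal growth. Fewer cells of a type and less RNA per cell cannot be told apart in such bulk samples.

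Metformin treated cells had more PRKAG1 and PRKAB2 transcript than cells in normal growth, and these were the only ones of the 10 genes that passed the test in any of the 3 comparisons. PRKAG1 was 1.21-fold higher with metformin than in starvation and 1.25-fold higher than in normal growth. PRKAB2 was 1.58-fold higher with metformin than in normal growth. In starvation against normal growth 0 of the 10 genes passed, where 0.15% of all probe sets did, and PRKAB2 stood 0.17 higher on the log2 scale (95% interval 0.04 to 0.30) without passing. The shares of all probe sets that passed were 4.28% with metformin against starvation and 9.07% with metformin against normal growth. The catalytic subunits, the STK11 and CAMKK2 kinases, CAB39 and PPARGC1A passed the test in 0 comparisons.

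As these genes rose in the same cells, the 250 bases before their annotated starts are shown, 5′ to 3′ on the strand of the gene, from RefSeq on GRCh38.p14. Both lie on the minus strand, PRKAG1 at chr12:49018777-49019026 and PRKAB2 at chr1:147172471-147172720. Capitals mark matches, on either strand, to the GC box (GGGCGG), the ETS site (CCGGAAG), the core of the cyclic AMP response element (TGACG) and the CCAAT box (CCAAT).
PRKAG1: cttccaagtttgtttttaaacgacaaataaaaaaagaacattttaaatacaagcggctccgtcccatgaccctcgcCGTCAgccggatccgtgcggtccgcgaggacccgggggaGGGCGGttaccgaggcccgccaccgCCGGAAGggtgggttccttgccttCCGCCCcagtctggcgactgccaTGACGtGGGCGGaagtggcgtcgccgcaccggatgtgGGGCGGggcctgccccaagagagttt
PRKAB2: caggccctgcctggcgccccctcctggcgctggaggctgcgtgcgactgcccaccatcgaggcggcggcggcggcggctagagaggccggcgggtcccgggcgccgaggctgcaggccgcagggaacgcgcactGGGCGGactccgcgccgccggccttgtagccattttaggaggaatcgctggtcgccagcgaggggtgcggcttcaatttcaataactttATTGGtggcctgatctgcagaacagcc
The PRKAG1 window had a GC content of 62.0% and held 4 GC boxes, 1 ETS site and 2 such cores, of which 1 lies a single base before a GC box. The PRKAB2 window, with a GC content of 69.6%, held 1 GC box and 1 CCAAT box. GC boxes, the only motif of the search found in both, occurred in 42.6% of the 35116 windows of the same length. An ETS site occurred in 8.52%, the core TGACG in 21.2% (windows with the full cyclic AMP response element included) and a CCAAT box in 32% of them. The full cyclic AMP response element (TGACGTCA), the E-box (CACGTG), the forkhead site (TGTTTAC) and the ATF4 composite site (TGATGNAA) occurred in 1.65%, 6.34%, 2.98% and 3.14% of all windows and in neither of the windows shown. All 10 genes matched at least 1 window of the table, 16 windows in all. Of these 16, 10 held a GC box, 3 an ETS site, 4 the core TGACG and 4 a CCAAT box. Each of these motifs also occurred in windows of genes that did not pass. A match of letters is a description and not a bound site, and the arrays do not show which start was used.

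PRKAG1, the most widely expressed γ subunit gene, read 10.69, 10.71 and 10.66 on the arrays of normal growth (A, B and C), 10.76, 10.73 and 10.71 in starvation, and 11.03, 10.99 and 11.00 with metformin, on the log2 scale. The metformin arrays lay above all others, with a mean of 11.01 ± 0.02 (SD, n = 3) against 10.73 ± 0.02 (SD, n = 3) in starvation and 10.68 ± 0.02 (SD, n = 3) in normal growth. The log2 difference between metformin and starvation was 0.28 (SE 0.05, 95% interval 0.15 to 0.40, adjusted p = 0.042 from limma). Between metformin and normal growth it was 0.32 (SE 0.05, 95% interval 0.21 to 0.43, adjusted p = 0.015 from limma). Starvation and normal growth were also apart by a narrow gap, and their difference of 0.05 did not pass (adjusted p = 0.848 from limma). Of all probe sets, 12.3% had a larger log2 difference upward between metformin and starvation, and 9.25% between metformin and normal growth. The call against starvation had little reserve, since it was lost whichever of the 6 arrays was left out (adjusted p from 0.0659 to 0.177 from limma) and with arrays set to a common median (0.155). Against normal growth it was lost without normal growth A, B or C (adjusted p = 0.0764, 0.0704 and 0.0719 from limma) and held without each metformin array, with differences of 0.31 to 0.33 throughout.

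PRKAB2, a β subunit gene known for its expression in muscle, read 8.60, 8.61 and 8.70 in normal growth, 8.75, 8.84 and 8.84 in starvation, and 9.47, 9.03 and 9.39 with metformin. The 3 groups did not overlap, and metformin B stood below the other treated arrays. The group means were 8.64 ± 0.06 (SD, n = 3), 8.81 ± 0.05 (SD, n = 3) and 9.30 ± 0.24 (SD, n = 3). With metformin the level exceeded normal growth by 0.66 on the log2 scale (SE 0.12, 95% interval 0.36 to 0.96, adjusted p = 0.0299 from limma). Against starvation the difference was 0.49, a 1.40-fold ratio, which did not pass (SE 0.12, 95% interval 0.18 to 0.79, adjusted p = 0.0957 from limma). Without metformin B it was 0.62 and passed (adjusted p = 0.035 from limma). The difference from normal growth was 0.79 without metformin B (adjusted p = 0.0138 from limma) and lost its call without any other of the 6 arrays (0.0611 to 0.119). Starved cells differed from normal growth by 0.17 (SE 0.05, unadjusted p = 0.0166 and adjusted p = 0.429 from limma). Larger rises were found in 2.07% of probe sets between metformin and normal growth, and in 4.93% between metformin and starvation.

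**Figure D1:**
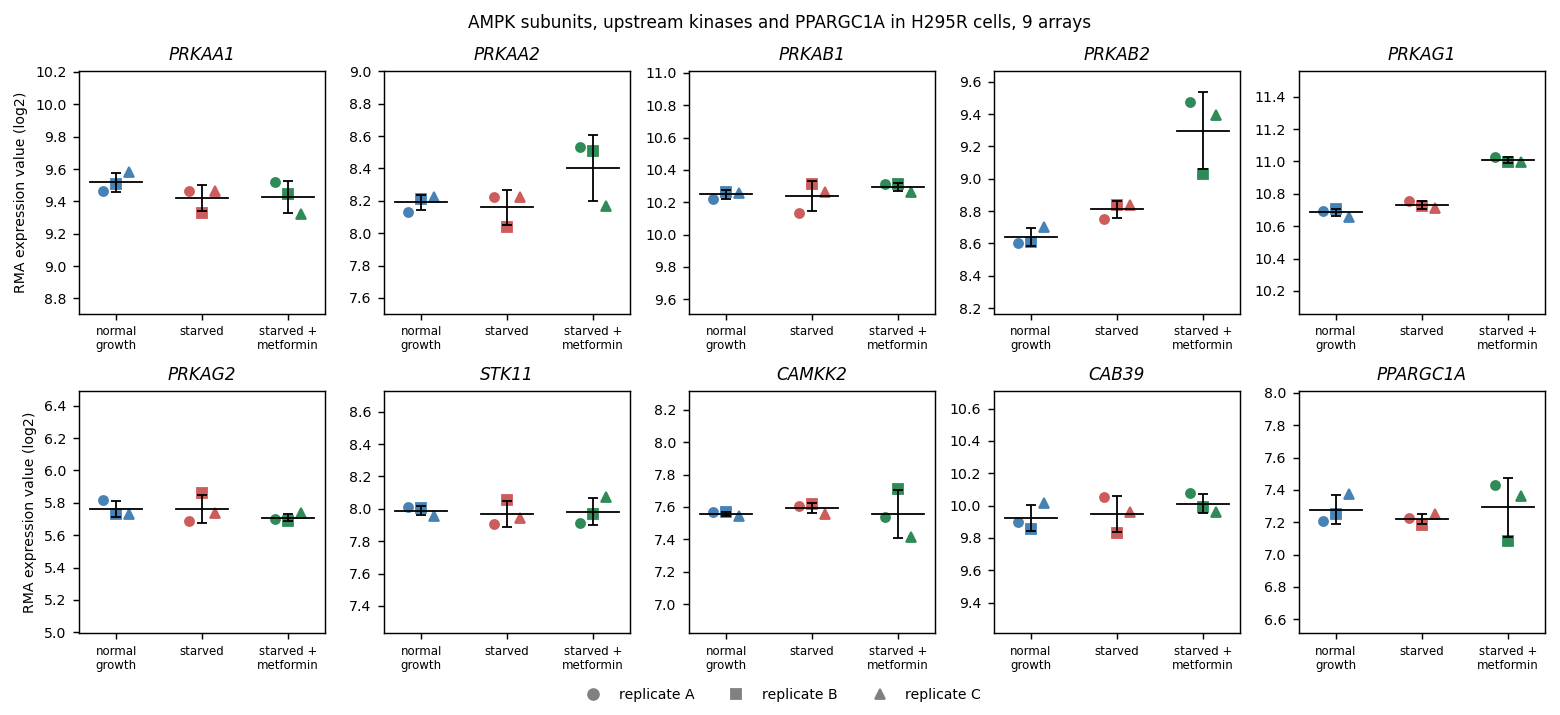
Deposited log2 expression value (vertical axis, the same span of 1.5 log2 units in every panel) of the 10 genes on the 9 arrays, by group (horizontal axis). Circles, squares and triangles are replicates A, B and C, long bars the means and whiskers the SD of 3 arrays. PRKAB2 and PRKAG1 lay higher on all 3 metformin arrays than on the other 6 arrays, and the groups overlapped for the other 8 genes.

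The second β subunit gene, PRKAB1, stayed between 10.13 and 10.31 on all 9 arrays. Its starved arrays read 10.13, 10.31 and 10.27, and so held both the lowest and the highest of the 9 values. The log2 difference was -0.01 in starvation (95% interval -0.16 to 0.13), 0.06 with metformin against starvation (95% interval -0.10 to 0.22) and 0.05 with metformin against normal growth (95% interval -0.07 to 0.16). Within the arrays, the log2 difference between metformin and normal growth was larger for PRKAB2 than for PRKAB1 by 0.61 (SE 0.15). With 3 arrays against 3, a two-sided exact permutation test cannot go below p = 0.1, which this contrast reached. The pairs of related genes were chosen after their values were seen, and 12 contrasts were made, so that the adjusted p here was 0.133 (exact permutation, Benjamini-Hochberg).

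PRKAG2, the γ subunit gene known for inherited heart disease, was dim, at percentile 45.7 of all probe sets, where background can make a change look too small. Its values were 5.82, 5.73 and 5.73 in normal growth, 5.69, 5.86 and 5.74 in starvation and 5.70, 5.69 and 5.74 with metformin. The groups overlapped, and metformin differed from normal growth by -0.05 (95% interval -0.17 to 0.07). The log2 difference of PRKAG1 exceeded that of PRKAG2 by 0.37 (SE 0.03) between metformin and normal growth and by 0.33 (SE 0.06) between metformin and starvation, each at p = 0.1 (exact permutation, the smallest possible). In starvation the gap was 0.04 (SE 0.06, exact permutation p = 0.6). PRKAG3, the γ subunit gene of fast muscle, lay at percentile 38.9 and passed in 0 comparisons.

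The catalytic subunit genes did not pass. PRKAA2, which codes for α2, read 8.13, 8.21 and 8.22 in normal growth, 8.22, 8.04 and 8.22 in starvation and 8.53, 8.51 and 8.17 with metformin. Arrays A and B of the metformin group lay above all others and array C among them. The difference was 0.24 against starvation (95% interval -0.05 to 0.54, adjusted p = 0.33 from limma) and 0.21 against normal growth (95% interval -0.05 to 0.48, adjusted p = 0.311 from limma). Without metformin C the latter was 0.33 and passed (adjusted p = 0.0278 from limma). PRKAA1, which codes for α1, read 9.46, 9.51 and 9.58, then 9.46, 9.33 and 9.47, then 9.52, 9.44 and 9.32 in the same order. All groups overlapped, with differences of -0.10 in starvation (95% interval -0.24 to 0.05), 0.01 with metformin against starvation (95% interval -0.18 to 0.20) and -0.09 against normal growth (95% interval -0.26 to 0.08). PRKAA2 exceeded PRKAA1 in its metformin against normal growth difference by 0.30 (SE 0.07, exact permutation p = 0.1, the smallest possible).

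The upstream genes passed in 0 comparisons, and their groups overlapped in each. STK11, the gene of LKB1, a tumour suppressor kinase, had 8.01, 8.00 and 7.96 in normal growth, 7.91, 8.06 and 7.94 in starvation, and 7.91, 7.97 and 8.07 with metformin. All its differences lay between -0.02 and 0.01, and the widest 95% interval reached from -0.16 to 0.19. CAMKK2, the calcium dependent kinase, read 7.57, 7.57 and 7.54, then 7.60, 7.62 and 7.56, then 7.54, 7.71 and 7.42. Its metformin arrays spread most, and the difference from starvation was -0.04 (95% interval -0.25 to 0.17). CAB39, the gene of MO25α, the scaffold that holds LKB1 active, read 9.90, 9.86 and 10.01, then 10.05, 9.83 and 9.96, then 10.08, 9.99 and 9.96. The largest of its differences was 0.09, with metformin against normal growth (95% interval -0.07 to 0.25).

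PPARGC1A, a driver of mitochondrial gene expression, read 7.21, 7.25 and 7.38 in normal growth, 7.23, 7.19 and 7.25 in starvation and 7.43, 7.08 and 7.36 with metformin. The metformin arrays held both the highest and the lowest of the 9 values. The difference was 0.07 against starvation (95% interval -0.18 to 0.32) and 0.01 against normal growth (95% interval -0.25 to 0.27), and -0.06 in starvation (95% interval -0.20 to 0.09). The intervals of these 8 genes reached a rise as large as that of PRKAG1 between metformin and starvation only for PRKAA2 and PPARGC1A.

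**Figure D2:**
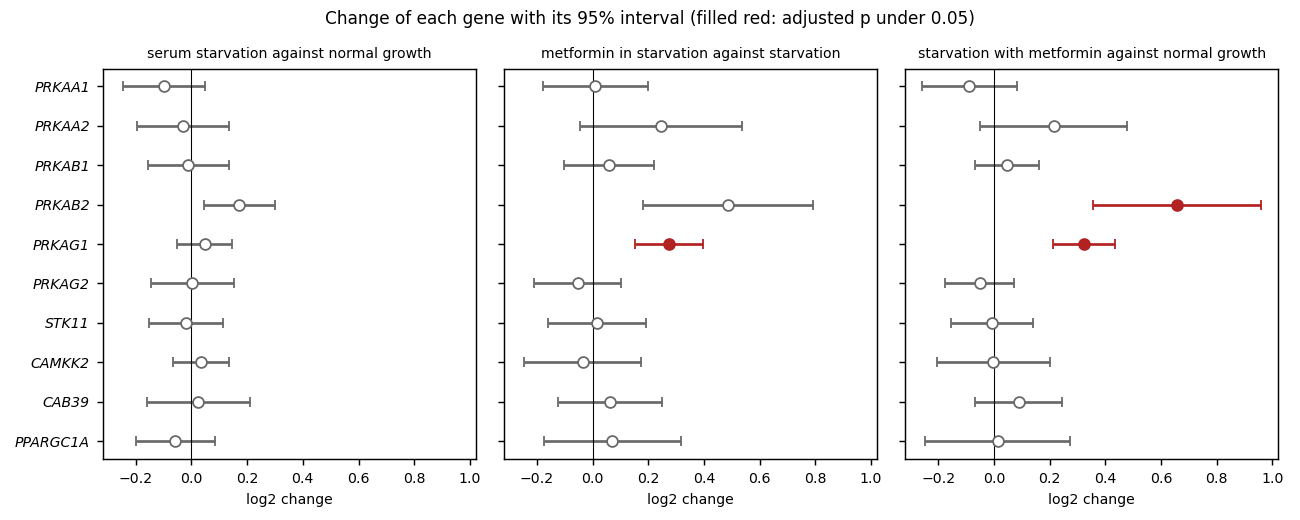
Log2 change of each of the 10 genes (horizontal axis) in the 3 comparisons, with the 95% interval from limma. Filled red points passed at an adjusted p under 0.05: PRKAG1 in both metformin comparisons and PRKAB2 in that against normal growth.

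Over the 10 genes, 0 passed in starvation against normal growth, where 0.15% of all probe sets did. An unadjusted p under 0.05 (limma) was found for 1 of them, beside 2676 of all 33297 probe sets. The groups did not overlap for 2 of them, PRKAB2 and PRKAG1, beside 13% of all probe sets. With metformin against starvation 1 passed, beside 4.28% of all probe sets, and groups were apart for 2, beside 25.2%. With metformin against normal growth 2 passed, beside 9.07%, and groups were apart for 2, beside 28.4%. Counts of this size over 10 genes were not read as particular to them. The median log2 difference of the 10 genes was 0.00, 0.06 and 0.03 in this order, and that of all probe sets 0.00, -0.01 and 0.00. The comparisons share arrays: both metformin comparisons use the treated arrays, and starvation stands in the first 2.

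The profiles most like those of the called genes were looked for over the 9 arrays, each gene centred on its mean, by the root mean square difference (RMS, log2 units). Nearest to PRKAB2 were CYP2S1, a cytochrome P450 (RMS 0.0507), SESN2, a stress induced sestrin (0.0557), and DLG4, a synaptic scaffold gene (0.0628). CYP2S1 was 0.62 higher with metformin than in normal growth (adjusted p = 0.0301 from limma) and SESN2 0.67 higher (adjusted p = 0.0278 from limma). DLG4 was at 0.54, which did not pass (adjusted p = 0.0879 from limma). As these genes were picked for their likeness over the same 9 arrays, the values they share with PRKAB2, the low metformin B included, follow from the choice, and so do their p values. Nearest to PRKAG1, by the same choice, were ECE1, the endothelin converting enzyme (RMS 0.0254), AHCYL1, which binds the IP3 receptor (0.0282), and BLTP2, a lipid transfer protein (0.0295). Their differences between metformin and normal growth were 0.29, 0.35 and 0.28, with adjusted p values of 0.0247, 0.0142 and 0.0249 from limma.

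**Figure D3:**
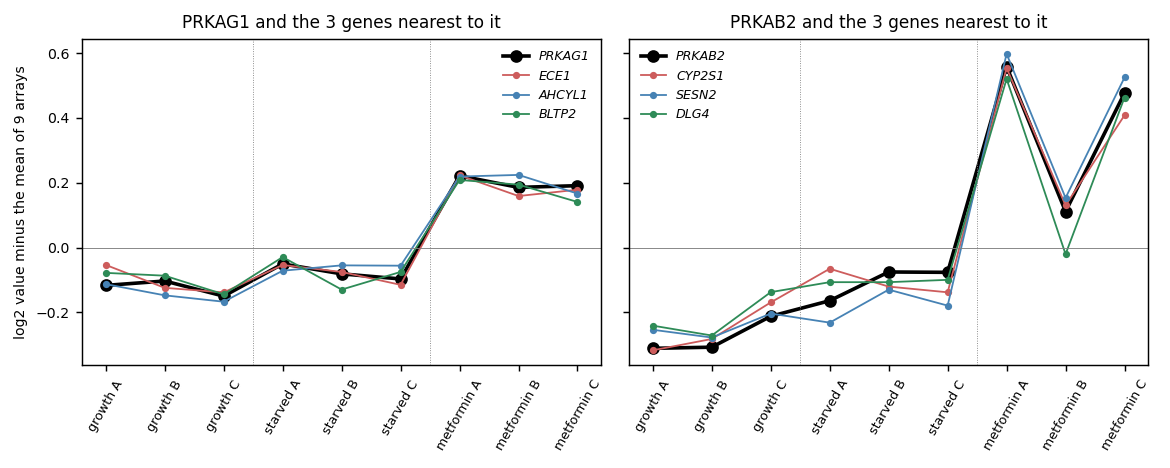
Log2 value minus the mean of 9 arrays (vertical axis) on each array (horizontal axis) for PRKAG1, PRKAB2 and the 3 genes with the nearest profile to each. The neighbours were chosen over these 9 arrays, so their likeness is given by the choice. Among the treated arrays PRKAB2 was lowest on B, at 9.03, and PRKAG1 lay between 10.99 and 11.03.

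Beside the counts of this list and of those below stand the shares of all probe sets that passed. These were 0.15% in starvation, 4.28% with metformin against starvation and 9.07% with metformin against normal growth. Around the LKB1 complex, 8 genes were measured, and 0 passed in starvation, 0 with metformin against starvation and 1 with metformin against normal growth. The 1 was CAB39L, the gene of MO25β and close relative of CAB39, which read 5.44, 5.53 and 5.35 in normal growth, 5.48, 5.34 and 5.99 in starvation and 6.27, 6.28 and 5.99 with metformin. Starvation C stood with the treated arrays rather than with its own group. CAB39L was 1.67-fold higher with metformin than in normal growth (log2 difference 0.74, SE 0.10, adjusted p = 0.0133 from limma). It was 0.58 higher than in starvation, which did not pass (adjusted p = 0.159 from limma). The log2 difference from normal growth exceeded that of CAB39 by 0.65 (SE 0.12, exact permutation p = 0.1, the smallest possible). CAB39L was dim in normal growth, below the lowest array median, and its call was lost without normal growth A, B or C (the highest adjusted p was 0.0705 from limma).

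LKB1 also activates kinases related to AMPK, of which 11 were measured, and 0, 0 and 2 of them passed in starvation, with metformin against starvation and with metformin against normal growth. With metformin against normal growth, BRSK1, a kinase of neuronal polarity, was higher by 0.45 (SE 0.10, adjusted p = 0.0463 from limma). MARK4, a kinase of microtubule binding proteins, was higher by 0.35 (SE 0.08, adjusted p = 0.0423 from limma). Both calls held only when metformin B was the array left out (highest adjusted p 0.16 and 0.154 from limma). Against starvation the differences were 0.38 and 0.25, which did not pass (adjusted p = 0.171 and 0.15 from limma). Starvation differed from normal growth by 0.07 and 0.11, without passing. Of the 4 genes of phosphatases that act on AMPK, 0 passed in any comparison, and 2 had an unadjusted p under 0.05 (limma), both higher with metformin than in normal growth. In that comparison 7639 of all 33297 probe sets had such a p, so the count was not read as particular to phosphatases.

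Genes of proteins that AMPK phosphorylates moved both ways with metformin. Of 18 measured, 0 passed in starvation, 1 rose and 1 fell with metformin against starvation, and 2 rose and 3 fell with metformin against normal growth. The shares of all probe sets that passed were 0.15%, 4.28% and 9.07%. PFKFB2, an enzyme that sets the level of the glycolytic activator fructose 2,6-bisphosphate, read 6.44, 6.69 and 6.71 in normal growth, 6.80, 6.45 and 6.71 in starvation, and 7.67, 7.39 and 7.40 with metformin. Treated arrays were apart from all others, 1.78-fold above starvation (log2 difference 0.84, SE 0.12, adjusted p = 0.027 from limma) and 1.84-fold above normal growth (adjusted p = 0.012 from limma). SREBF1, the gene of the lipid synthesis factor SREBP-1, read 8.68, 8.57 and 8.63, then 8.21, 8.17 and 8.21, then 7.32, 7.63 and 7.24. The 3 groups were apart, and the level with metformin was 2.34-fold below normal growth (log2 difference -1.23, SE 0.11, adjusted p = 0.00581 from limma) and 1.74-fold below starvation (adjusted p = 0.024 from limma). Starvation alone had a difference of -0.43 that did not pass (adjusted p = 0.0585 from limma). The fall of SREBF1 against normal growth passed without each single array. PFKFB2 passed against starvation only without metformin C and against normal growth without each metformin array, and SREBF1 passed against starvation without metformin B or C. Against normal growth LIPE, the hormone-sensitive lipase that frees cholesterol from its esters, was at -0.46 (adjusted p = 0.0114 from limma), CRY1, a clock repressor, at 0.44 (adjusted p = 0.0109 from limma), and RPTOR, the mTORC1 scaffold, named after its value was seen, at -0.40 (adjusted p = 0.0322 from limma). LIPE averaged 8.80 in normal growth, 8.48 in starvation and 8.34 with metformin, so most of its difference was present without the drug. In the same order CRY1 averaged 8.36, 8.43 and 8.79, and RPTOR 8.45, 8.40 and 8.05. LIPE and CRY1 lost their calls without normal growth A, B or C. For RPTOR the call was not examined with arrays left out.

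**Figure D4:**
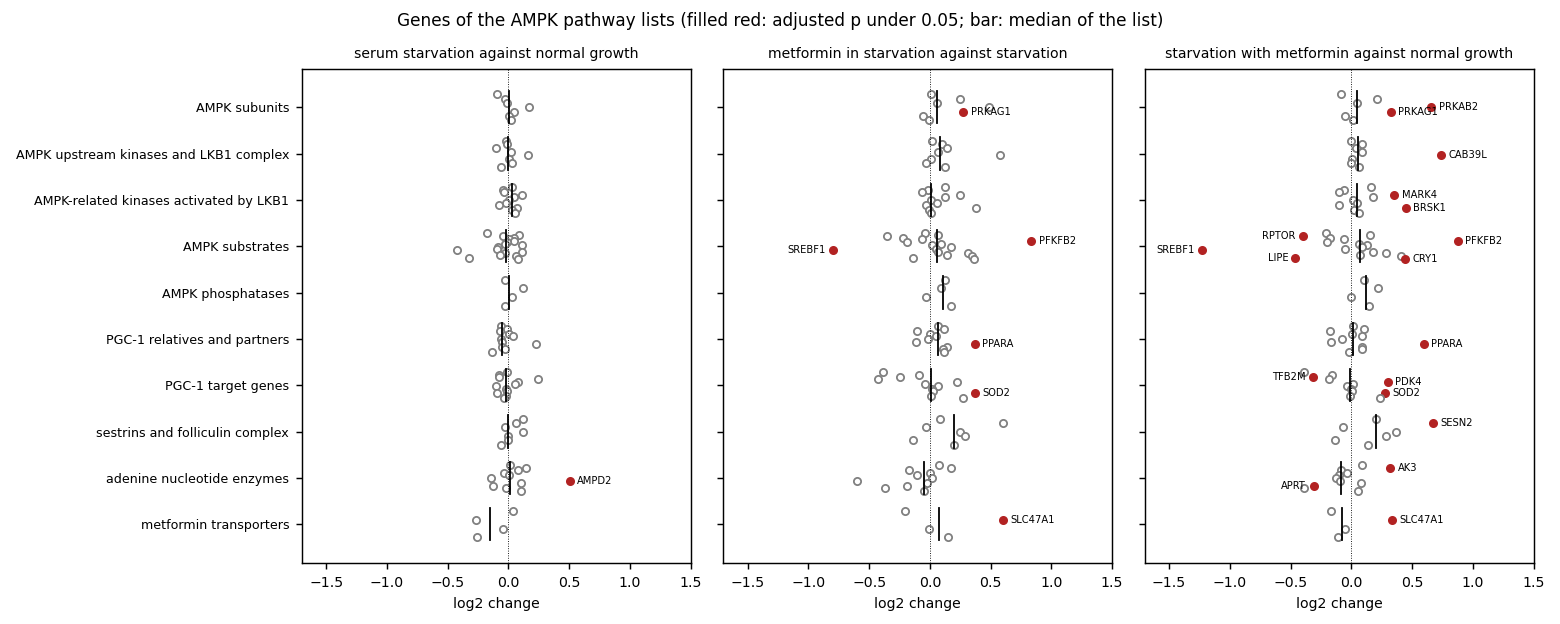
Log2 change (horizontal axis) of the genes of 10 lists around AMPK (rows) in the 3 comparisons. Each point is a gene, filled red and named at an adjusted p under 0.05 from limma, and black bars are list medians. Only AMPD2 passed in starvation, and SREBF1 had the lowest value of all lists, at -1.23.

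PGC-1α acts with nuclear receptors and other factors. Of 11 relatives and partners, PPARGC1A included, 0 passed in starvation and 1 in each metformin comparison. This was PPARA, the receptor that drives fat oxidation, with 7.45, 7.38 and 7.45 in normal growth, 7.57, 7.67 and 7.72 in starvation and 8.06, 8.01 and 8.01 with metformin. The groups were apart in this order, with a log2 difference of 0.60 between metformin and normal growth (SE 0.05, adjusted p = 0.00532 from limma), which passed without each single array, and of 0.37 between metformin and starvation (adjusted p = 0.0349 from limma), which was lost without any of the 6. Of 12 PGC-1 target genes, 1 rose with metformin against starvation, and 2 rose and 1 fell against normal growth. SOD2, the mitochondrial superoxide dismutase, differed by 0.37 and 0.28 in this order (adjusted p = 0.0331 and 0.0412 from limma). Against normal growth, PDK4, which restrains pyruvate oxidation, differed by 0.30 (adjusted p = 0.0254 from limma) and TFB2M, a mitochondrial transcription factor, by -0.32 (adjusted p = 0.0259 from limma). SOD2 passed in both comparisons only when metformin C was the array left out, PDK4 without metformin B or C, and TFB2M without metformin A or C.

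Sestrins and the folliculin complex act between AMPK, mTORC1 and nutrient stress, and of 7 such genes 0, 0 and 1 passed. SESN2 read 7.45, 7.43 and 7.50 in normal growth, 7.48, 7.58 and 7.53 in starvation, and 8.31, 7.86 and 8.23 with metformin, apart from both other groups. Its difference of 0.61 from starvation did not pass (adjusted p = 0.0579 from limma), and the call against normal growth was lost without any array but metformin B (highest adjusted p = 0.112 from limma). The members of the list lay on both sides of 0, from -0.14 to 0.61 with metformin against starvation and from -0.14 to 0.67 against normal growth.

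Among 11 enzymes of adenine nucleotides, the ligands of AMPK, AMPD2, the AMP deaminase, was the only gene of the 10 lists that passed in starvation. It read 9.15, 9.11 and 9.07 in normal growth, 9.68, 9.55 and 9.63 in starvation, and 8.88, 9.33 and 8.84 with metformin. Starved arrays were above all others, 1.42-fold over normal growth (log2 difference 0.51, SE 0.05, adjusted p = 0.049 from limma), a call that was lost without any of the 6 arrays. With metformin the difference from starvation was -0.60 (adjusted p = 0.0767 from limma). Of the same list, AK3, a mitochondrial adenylate kinase, rose by 0.32 (adjusted p = 0.019 from limma) and APRT, which salvages adenine, was at -0.31 (adjusted p = 0.0189 from limma) with metformin against normal growth. AK3 lost its call without normal growth A, B or C or metformin A, and APRT without normal growth A, B or C.

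Of 4 transporter genes of metformin measured, SLC47A1, the exporter MATE1, was higher with metformin than in starvation by 0.60 (SE 0.06, adjusted p = 0.0145 from limma) and than in normal growth by 0.34 (SE 0.05, adjusted p = 0.019 from limma). It read 10.16, 10.09 and 10.10 in normal growth, 9.84, 9.83 and 9.88 in starvation and 10.44, 10.51 and 10.41 with metformin. Starved arrays were the lowest of the 3 groups, though their difference of -0.27 from normal growth did not pass (adjusted p = 0.146 from limma). The call against starvation was lost without starvation A, B or C or metformin A, and that against normal growth without normal growth A, B or C.

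The median log2 difference of the 10 lists around AMPK ranged from -0.15 (metformin transporters) to 0.03 (kinases related to AMPK) in starvation, beside 0.00 over all probe sets. It ranged from -0.05 (adenine nucleotide enzymes) to 0.20 (sestrins and folliculin complex) with metformin against starvation, beside -0.01, and from -0.09 to 0.20 for the same lists with metformin against normal growth, beside 0.00. The lists were not tested as groups, and the counts of their genes that passed were not read as particular to them.

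The adjusted p of PRKAG1 and PRKAB2 depended on the setting more than their differences did. With metformin against starvation, PRKAG1 passed under 8 and PRKAB2 under 4 of 16 alternatives, and the log2 differences ranged from 0.25 to 0.29 and from 0.40 to 0.62. With metformin against normal growth, PRKAG1 passed under 12 and PRKAB2 under 9 of 16, with differences of 0.30 to 0.34 and 0.57 to 0.79.

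**Figure D5:**
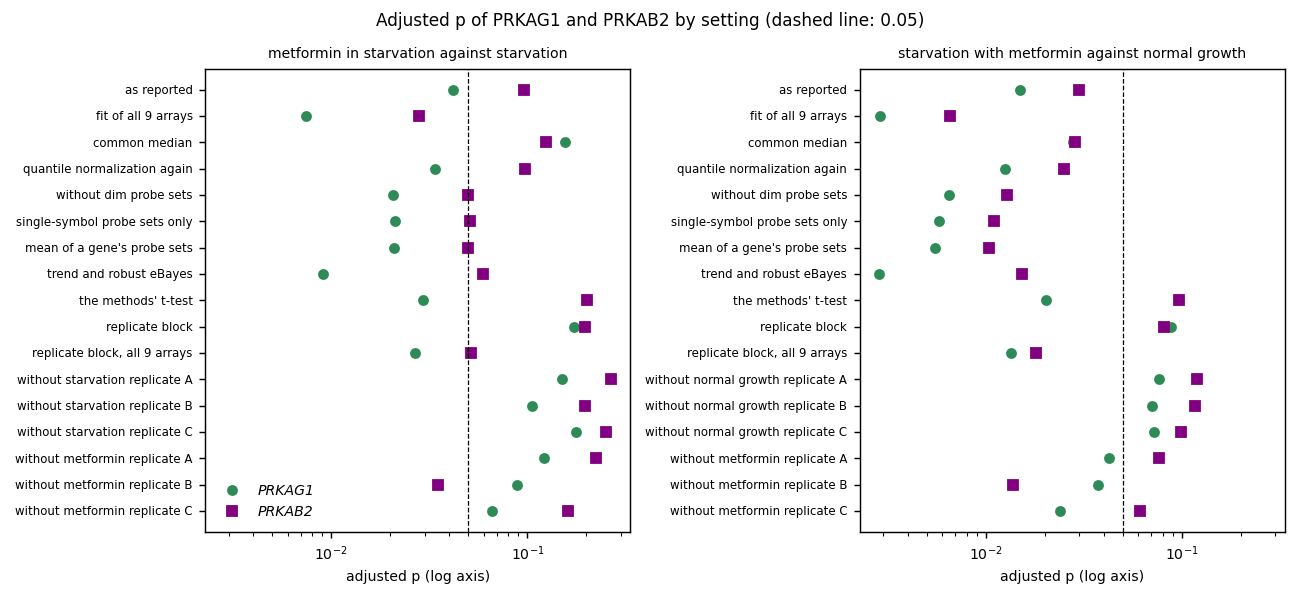
Adjusted p (horizontal log axis) of PRKAG1 (circles) and PRKAB2 (squares) with metformin against starvation (left) and against normal growth (right), as reported and under each of 16 alternatives (rows). The dashed line marks 0.05. With metformin against starvation, PRKAG1 lay at 0.042 as reported and PRKAB2 at 0.0957.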

How the data were processed

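Total RNA of H295R cells, 3 arrays in each of 3 groups, was hybridized to GeneChip Human Gene 1.0 ST arrays. The authors deposited log2 values for 33297 probe sets, made by RMA. Per the submitters' notes this was done in Affymetrix Expression Console, with limma also listed, while the study's methods give Affymetrix Power Tools. For these tools a version, and for the probes a genome build, is not given in the sources used here. In RMA the background is corrected, arrays are brought to a common distribution and median polish makes 1 value of a probe set, which can give equal values. For 3 of the 10 genes, at least 2 arrays of a group had the same value. Arrays have no read depth, and their number limits the precision.

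Each comparison was a limma model (version 3.58.1, R 4.3.3) of its 6 arrays, without a block. The p values were adjusted by Benjamini-Hochberg over all probe sets, and an adjusted p under 0.05 passed. Genes were named from 19460 probe sets with 1 symbol, with the brightest probe set for a gene with several. The steps were tested on simulated data. The named genes are the 10 genes, for each list and comparison the called genes with the largest differences (at most 4), and the 3 nearest profiles of each called member. Some genes of the lists are not reported here, and counts are over the genes measured. The members and lists were chosen with earlier results of these data known. Alternatives were a fit of all 9 arrays, a common median, quantile normalization again, no probe sets under percentile 40, single-symbol probe sets, gene means, trend and robust eBayes, the methods' t-test (run on the log2 values, its p values adjusted likewise), the letter as a block and each array left out. Promoter windows came from RefSeq (GRCh38.p14).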

Additional observations from a re-analysis of the deposited data

How the results depend on the processing

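Precision is limited by 3 arrays in a group. The called changes of PRKAG1 and PRKAB2 kept their direction under every alternative run, but not their calls. Of 24 calls that the naming rule gives, 22 were lost when at least 1 of the 6 arrays was left out and 3 in all 6 cases. With the replicate block, 0 probe sets passed in any of the 3 comparisons (adjusted p for PRKAG1 0.173 against starvation and 0.0881 against normal growth, from limma). With it, 1, 2 and 2 of the 10 genes had an unadjusted p under 0.05 (limma) in starvation, with metformin against starvation and against normal growth. Without the block, 2676, 6629 and 7639 of all 33297 probe sets did in the same order. The number of all probe sets with the block is not given here, so the counts were not read as particular to the 10 genes. No label says that a letter marks a shared experiment, deviations of same-lettered arrays correlated between -0.249 and 0.294, and not every array correlated best with its own letter, so the letters were not taken as pairs. The replicate block in a fit of all 9 arrays was chosen after seeing the data.

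In starvation, all probe sets called were 50, and 28 with the common median, 142 without dim probe sets, 155 with single-symbol probe sets and with gene means, 126 with trend and robust eBayes, 0 with the replicate block, 12 with it in all 9 arrays, and 0 to 22 with 1 array left out. With metformin against starvation, 1425 became 3368 in the fit of all 9 arrays, 611, 2604 and 2469 with common median, without dim probe sets and with trend and robust eBayes, 650 with the methods' t-test, 0 and 2360 with the replicate block in 6 and 9 arrays, and 0 to 1189 with 1 array left out. The called members, 1, became 2 in the fit of all 9 arrays, without dim probe sets and with gene means, 0 with the common median and the replicate block, and 0 to 1 with 1 array left out. With metformin against normal growth, 3021 became 1446 with the methods' t-test, 0 with the replicate block and 439 to 3734 with 1 array left out, and the 2 members called became 1, 0 and 0 to 2. The causes of these shifts were not tested. Under some of these settings fewer arrays or probe sets entered the fits.

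Signs turned only for members that did not pass. In starvation, STK11 was at 0.000239 after quantile normalization. With metformin against starvation, PRKAA1 was at -0.0162 and STK11 at -0.0116 with the common median, and at -0.0037 and -0.0254 after quantile normalization. Against normal growth, PPARGC1A was at -0.0104 and -0.00533 under these. With 1 array left out, the ranges in starvation were -0.0610 to 0.0321 for PRKAA2, -0.0482 to 0.0408 for PRKAB1, -0.0459 to 0.0385 for PRKAG2, -0.0643 to 0.0104 for STK11 and -0.0279 to 0.0828 for CAB39. With metformin against starvation they were -0.0359 to 0.0625 for PRKAA1, -0.0307 to 0.0585 for STK11 and -0.114 to 0.0342 for CAMKK2, and against normal growth -0.0508 to 0.0303 for STK11, -0.0800 to 0.0679 for CAMKK2 and -0.0571 to 0.118 for PPARGC1A.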
